A study of Mus musculus with 6 samples.

Results

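Oxidative phosphorylation is carried out by 5 multi-subunit complexes of the inner mitochondrial membrane. Their nuclear genes were taken here by symbol: genes beginning with Nduf for complex I, Sdha to Sdhd for complex II, genes beginning with Uqcr for complex III, Cox4 to Cox8 genes for complex IV and genes beginning with Atp5 for complex V. The rule found 92 of the 23478 genes in the count table, and 89 of them had enough counts to be tested. Ndufa4 and its relative Ndufa4l2 were placed in complex IV, and Atp5sl, named after the ATP synthase but known as a complex I assembly factor, in complex I. The placement of the genes was made from general knowledge.

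The RNA came from tracheas of mouse embryos at embryonic day 13.5. All 6 libraries came from embryos labelled control, with the genotype Bmp4 f/f; gamma SMA eGFP, so both populations carried floxed Bmp4 alleles and the reporter of gamma smooth muscle actin. Muscle was sorted by GFP and epithelium by an APC-coupled antibody to Epcam, a surface protein of epithelial cells, with 3 libraries each. The muscle population is therefore defined by the activity of a smooth muscle promoter at a stage when the trachealis is forming. The labels do not say whether libraries came from separate embryos or litters, so p-values measure the spread between these libraries, which may be technical.

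In complexes I and II, electrons from NADH and succinate enter the chain and are passed to ubiquinone. Complex III hands them to cytochrome c and complex IV to oxygen, and complexes I, III and IV pump the protons whose return drives ATP synthesis in complex V. Contractile cells are known for a high demand on this pathway, and several subunits of complex IV have isoforms that are used in heart, skeletal muscle, lung or testis. The 13 subunits encoded by mitochondrial DNA were not found in the count table, so they were not analysed here.

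Total counts ranged from 11847432 to 54848820 per library. The identifier row of the table's header holds numbers that were read here as days, 3 for both replicates numbered 2 and 16 for the other 4 libraries. What the day stands for is not given. Counts over 1449 olfactory and vomeronasal receptor genes, taken here as a measure of background, were high in 3 libraries. They are given as CPM, a library's counts scaled to a common total. Per gene they averaged 0.601 CPM in muscle replicate 2, 1.24 CPM in replicate 2 of epithelium and 0.433 CPM in its replicate 3. Elsewhere the average was 0.0252 CPM or less. Whether either population uses some of these genes was not tested. All CPM values below, except those of the receptor genes, were computed with TMM-scaled library sizes (trimmed mean of M-values). Receptor gene values used total counts without that scaling. Smooth muscle markers passed the test as higher in muscle for 7 of 8 genes, all but Synm, and epithelial markers as higher in epithelium for 8 of 8. Synm went the other way, with a log2 fold change, muscle over epithelium, of -1.12. It was not called, though every epithelial library was above every muscle one. Of 11 markers of skeletal or cardiac muscle, 3 (Actc1, Acta1 and Tnnt2) were also higher in muscle, and the list's summed level was 1516, 347 and 1348 CPM in muscle replicates 1, 2 and 3 and 10.5 to 86.3 CPM in epithelium. Muscle replicate 2, lowest for this list, was also lowest for the smooth muscle markers, which summed to 15500, 3814 and 16473 CPM in muscle replicates 1, 2 and 3. On the TMM scale it was the lowest muscle library for most oxidative phosphorylation genes as well. Their unscaled share of its counts was 1.72%, above the 1.595% of muscle replicate 1. Within the skeletal or cardiac muscle list, Myog was at 245 CPM in muscle replicate 1, 1.2 in replicate 2 and 17.3 in replicate 3. Ckm was at 1.5 CPM or less in every library. Markers of pericytes (447 to 696 CPM summed in muscle, 126 to 209 in epithelium) and of cartilage (652 to 1129 against 219 to 462) each had 2 of 5 genes called higher in muscle. The part of such cells in the results was not tested.

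Promoter sequence was read for the genes that RefSeq (GRCm38.p6) lists, from 250 bases before to 50 bases after the first start given. Of the 92 genes, 73 had an entry. Nuclear respiratory genes are known to be driven largely by NRF1 and by ETS factors of the GABP type. The NRF1 motif (GCGC, any base, then TGCGC) stood on either strand in 18 of the 73 promoters, 24.7%, against 4.78% of all 27025 promoters of the same length. The ETS motif CCGGAAG stood in 16, 21.9% against 9.12%. The YY1 motif AAGATGGCG stood in 6, 8.2% against 1.49%, the ERR motif TCAAGGTCA in 2, 2.7% against 0.41%, and the TATA motif TATAAA in 7, 9.6% against 14.16%. An ETS and a YY1 match can share the letters AAG. In all, 35 of the 73 held at least 1 of the first 3, 47.9% against 14.04%. The 27025 promoters were not limited to genes expressed in these cells, and a share among expressed genes was not computed. A match describes the letters only.

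The stretches below run from 250 bases before the start to 30 bases after it, 5′ to 3′ on the gene's strand, with motif matches in capitals. They show the called genes that have an entry (Cox7b, Ndufa1, Ndufa4 and Ndufa5) beside Sdhd and Atp5k, which hold both an NRF1 and an ETS match. Cox6c and Uqcrb are named only.
Cox7b (chrX:106015450-106015729, plus strand): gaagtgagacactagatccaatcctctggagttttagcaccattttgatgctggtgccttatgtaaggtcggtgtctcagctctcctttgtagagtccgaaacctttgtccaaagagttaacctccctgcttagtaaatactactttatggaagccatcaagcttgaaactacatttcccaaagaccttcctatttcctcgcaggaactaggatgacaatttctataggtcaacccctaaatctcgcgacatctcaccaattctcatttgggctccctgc
Ndufa1 (chrX:37191209-37191488, minus strand): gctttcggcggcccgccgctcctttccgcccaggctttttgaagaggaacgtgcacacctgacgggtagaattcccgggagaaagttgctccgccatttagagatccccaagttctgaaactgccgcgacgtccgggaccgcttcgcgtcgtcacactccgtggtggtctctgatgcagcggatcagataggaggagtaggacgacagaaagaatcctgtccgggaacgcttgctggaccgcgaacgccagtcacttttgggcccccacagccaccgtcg
Ndufa4 (chr6:11907421-11907700, minus strand): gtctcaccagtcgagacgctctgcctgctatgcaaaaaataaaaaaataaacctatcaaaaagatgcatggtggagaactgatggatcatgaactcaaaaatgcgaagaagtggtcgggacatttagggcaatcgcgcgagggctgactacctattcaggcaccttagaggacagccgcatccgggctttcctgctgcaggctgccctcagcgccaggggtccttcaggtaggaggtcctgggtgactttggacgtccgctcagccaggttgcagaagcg
Ndufa5 (chr6:24527497-24527776, minus strand): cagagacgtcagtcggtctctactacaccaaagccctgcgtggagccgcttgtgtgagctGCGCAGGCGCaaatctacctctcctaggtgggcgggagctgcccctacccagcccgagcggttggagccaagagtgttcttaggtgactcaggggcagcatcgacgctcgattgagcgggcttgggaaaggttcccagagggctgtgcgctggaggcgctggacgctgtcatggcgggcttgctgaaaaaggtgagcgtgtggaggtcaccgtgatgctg
Sdhd (chr9:50603820-50604099, minus strand): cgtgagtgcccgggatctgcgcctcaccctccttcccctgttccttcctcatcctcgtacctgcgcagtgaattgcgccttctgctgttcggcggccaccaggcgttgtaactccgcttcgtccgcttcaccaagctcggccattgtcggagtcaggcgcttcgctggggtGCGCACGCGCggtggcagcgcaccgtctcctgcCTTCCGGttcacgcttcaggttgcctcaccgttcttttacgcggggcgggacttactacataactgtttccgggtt
Atp5k (chr5:108434370-108434649, minus strand): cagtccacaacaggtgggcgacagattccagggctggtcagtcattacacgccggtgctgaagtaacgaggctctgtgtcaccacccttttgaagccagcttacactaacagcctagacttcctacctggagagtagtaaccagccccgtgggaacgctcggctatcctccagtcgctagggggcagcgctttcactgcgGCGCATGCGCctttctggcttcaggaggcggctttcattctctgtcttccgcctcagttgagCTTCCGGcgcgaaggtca

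Of the 4 called genes shown, Ndufa5 has an NRF1 match and the others have none of the motifs in the printed stretch. The Ndufa5 stretch, set by the RefSeq start, lies wholly inside the gene span that GENCODE gives (chr6:24518666-24528013, minus strand). Its NRF1 match is therefore not upstream of that whole span. The median log2 fold change, muscle over epithelium, was 0.66 for tested genes with an NRF1 match and 0.60 for those without, and 0.61 both with and without an ETS match. It was 0.44 for the 6 with a YY1 match and 0.62 for those without, and 0.48 for the 2 with an ERR match and 0.62 for those without. These differences were not tested.

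Transcripts of oxidative phosphorylation genes stood at moderately higher levels in muscle than in epithelium, nearly all of them by less than could be called gene by gene. The fitted log2 fold change was above 0 for 86 of 89 tested genes, against 45.5% of all 19375 tested genes, and for 78 when libraries were scaled by total counts alone. Its median was 0.60, a 1.52-fold difference, beside -0.10 over all tested genes, with quartiles of 0.40 and 0.82. In edgeR's quasi-likelihood test, with Benjamini-Hochberg adjusted p-values over the whole table, 6 passed an adjusted p of 0.05 as higher in muscle: Ndufa5, Ndufa4, Ndufa1, Cox6c, Uqcrb and Cox7b. That is 6.74% of them, beside 6.58% of all tested genes, so the count of calls is near the background. None was called higher in epithelium by edgeR, DESeq2 or limma-voom, nor at an unadjusted p of 0.05 by edgeR, while 4.11% of all tested genes were called higher there. At an unadjusted p of 0.05, 41 were higher in muscle, beside a background of 13.5%.

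The levels of 49 of the 89 genes did not overlap between the groups, with every muscle library above every epithelial one, against a background of 16.4%. In none was every epithelial library above every muscle one, against 10.5%. Most of these genes are well expressed, and so are many that differed: among the 4123 tested genes whose average log2 CPM reached 6, 13.6% were called higher in muscle, 26.8% did not overlap in that direction, 66.9% had a fold change above 0, and the median log2 fold change was 0.22. At that level stood 68 oxidative phosphorylation genes, of which 5 were called, 38 did not overlap and 67 were above 0, with a median of 0.60. Since RNA was pooled over sorted cells, a difference in the number of cells of a type and a difference in RNA per cell cannot be told apart.

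**Figure D1:**
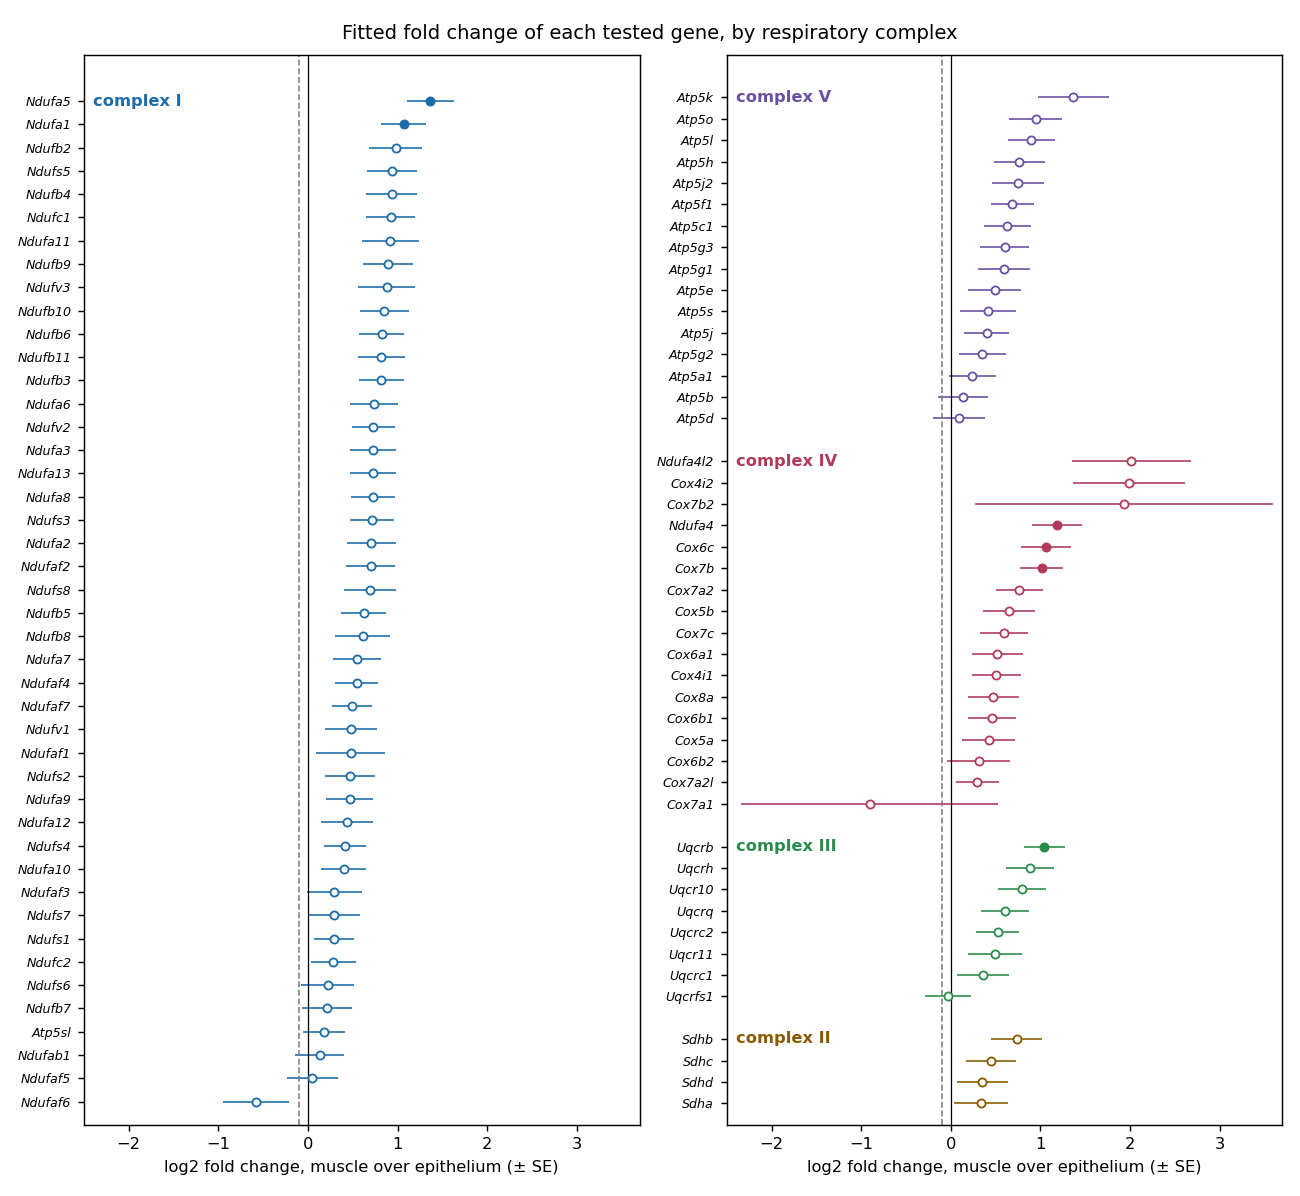
Fitted log2 fold change, muscle over epithelium, with its standard error for the 89 tested oxidative phosphorylation genes, grouped by respiratory complex. Filled points are the 6 genes past an adjusted p of 0.05, the dashed line is the median of all tested genes (-0.10), and 86 points lie right of 0.

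Without any scaling, counts of the 92 genes made up 1.595%, 1.72% and 1.803% of all counts in the muscle libraries, replicate 1 first, and 1.534%, 1.32% and 1.515% in the epithelial ones. All counts here include none of the 13 subunits encoded by mitochondrial DNA. The 95% Wilson interval of each share was at most 0.0065 percentage points to either side, counting error only. The groups did not overlap, though muscle replicate 1 and epithelium replicate 1 lay close together (1.706% ± 0.105 in muscle, 1.456% ± 0.118 in epithelium, SD, n = 3). After TMM scaling their summed level was 19023, 15186 and 22491 CPM in muscle and 15639, 10450 and 14353 CPM in epithelium. On that scale the groups overlapped, since muscle replicate 2 fell below epithelium replicate 1.

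On the TMM scale the genes moved together between libraries of 1 group as well. Muscle replicate 3 was the highest muscle library for 72 of the 89 genes and muscle replicate 2 the lowest for 66. In epithelium, replicate 1 was the highest for 63 and replicate 2 the lowest for 79. Setting each muscle library against each epithelial one gave a median log2 ratio over the 89 genes from 0.07, for muscle replicate 2 over epithelium replicate 1, to 1.24, for muscle replicate 3 over epithelium replicate 2. The first was below the median of all tested genes in that pair (0.27), and 54 of 89 genes were higher in muscle there. In the other 8 pairs the median lay above that of all genes, and between 65 and 88 of the 89 genes were higher in muscle.

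**Figure D2:**
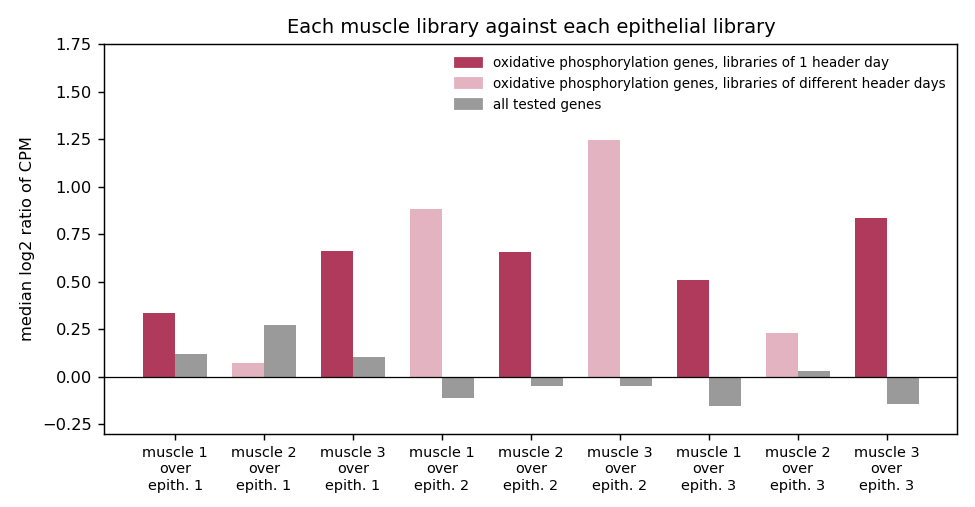
Median log2 ratio of CPM for each of the 9 pairs of a muscle and an epithelial library, over the 89 tested oxidative phosphorylation genes (red, dark where both libraries have the same header day) and over all tested genes (grey). The red bar is above the grey one in 8 pairs and below it for muscle replicate 2 over epithelium replicate 1 (0.07 against 0.27).

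After TMM scaling, both libraries of header day 3 had low levels of these genes, and each group holds 1 of them. By unscaled share of counts, epithelium replicate 2 was the lowest of its group (1.32%). Muscle replicate 2 (1.72%) lay between muscle replicates 1 (1.595%) and 3 (1.803%). Within day 3, the single pair gave a median log2 ratio of 0.65, with 83 of 89 genes higher in muscle. Among the 4 libraries of day 16, the median fitted log2 fold change was 0.53 and 16 of 91 tested genes were called higher in muscle by edgeR, beside 10.7% of all genes tested there. With the day as a term in the model of all 6 libraries, 42 of 89 were called (47.2%), beside 10.6% of all genes, while the median fold change stayed at 0.62. The 42 include the 6 named above. The receptor gene background was also highest in the libraries of day 3, and with its level as a covariate 23 genes (25.8%) were called beside 8.99% of all genes. The median in that fit was 0.53, beside 0.11 over all genes. The part of day, depth and background in the levels was not tested further.

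The calls rested on few libraries. Leaving out epithelium replicate 3 removed all 6 (0 of 90 tested, with 17 at an unadjusted p of 0.05), beside 2.82% of all genes called higher in muscle in that fit. Without muscle replicate 3 or epithelium replicate 1, only Ndufa5 of the 6 was still called. Ndufa5 and Cox6c were called without muscle replicate 1, Ndufa4, Ndufa5 and Uqcrb without epithelium replicate 2, and all 6 without muscle replicate 2, when 18 of 92 oxidative phosphorylation genes (19.6%) were called beside 8.25% of all genes. The share of all genes called higher in muscle was 3.48% without muscle replicate 3, 3.94% without muscle replicate 1, 4.9% without epithelium replicate 1 and 6.26% without epithelium replicate 2. The median log2 fold change ranged from 0.39 (without epithelium replicate 2) to 0.75 (without epithelium replicate 1) over these fits, and 81 to 87 of the 89 genes were above 0.

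Complex I supplied 44 of the tested genes, of which 43 had a fold change above 0, 25 did not overlap between the groups and 2 were called higher in muscle. The called ones are both accessory subunits, which surround the catalytic core. Ndufa5 (mm10 chr6:24518666-24528013, minus strand), in the arm that reaches into the matrix, was at 69.8, 69.8 and 113 CPM in muscle and 33.1, 29.5 and 35.3 CPM in epithelium. Every muscle library was well above all epithelial ones, and muscle replicate 3 was the highest. The means were 84.2 ± 24.9 and 32.6 ± 2.94 CPM (SD, n = 3). On the log2 scale muscle was higher by 1.37 ± 0.27 (SE; adjusted p = 0.0112, edgeR).

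Ndufa1 (chrX:37187588-37191163, minus strand), a small membrane subunit needed for assembly of the complex, was at 110, 118 and 157 CPM in muscle and 68.6, 49.8 and 64.7 CPM in epithelium. The groups did not overlap (log2 fold change 1.07 ± 0.25, adjusted p = 0.0259, edgeR). By role, the 29 accessory subunits had a median log2 fold change of 0.73, with all 29 above 0 and 19 without overlap. The 7 core subunits, which include the carriers of the flavin and the iron-sulphur clusters, had a median of 0.48, and the 8 assembly factors one of 0.39. These differences between roles were not tested.

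Ndufaf6, an assembly factor, was the only complex I gene with a fold change below 0 and the one with the lowest level per kilobase of transcript (10.6 CPM per kb, mean of both groups). It was at 9.31, 6.79 and 11.5 CPM in muscle and 16.8, 9.89 and 14.6 CPM in epithelium. The groups overlapped, and the difference of -0.58 ± 0.37 on the log2 scale missed the threshold (adjusted p = 0.475, edgeR). The highest complex I level was that of Ndufb8, an accessory subunit of the membrane arm, with 434 CPM per kb. It was higher in muscle by 0.61 ± 0.31 on the log2 scale, which did not pass (adjusted p = 0.317, edgeR).

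Complex II, succinate dehydrogenase, also works in the tricarboxylic acid cycle. None of its 4 genes was called by edgeR, and all 4 fold changes were above 0. Sdhb, the iron-sulphur subunit, had the largest: 307, 220 and 352 CPM in muscle against 212, 129 and 186 CPM in epithelium, without overlap (log2 fold change 0.74 ± 0.28, adjusted p = 0.159). The flavin-bearing Sdha and the membrane anchors Sdhc and Sdhd overlapped between the groups. Their log2 fold changes were 0.34 ± 0.30, 0.45 ± 0.28 and 0.35 ± 0.28, with adjusted p of 0.706, 0.455 and 0.653 by edgeR. Per kilobase, Sdhd had the highest level of the 4 (249 CPM per kb) and Sdhc the lowest (48.2).

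In complex III, 7 of 8 genes had a fold change above 0, 5 did not overlap and Uqcrb was called. Uqcrb (chr13:66900617-66905378, minus strand), a small subunit close to a ubiquinone-binding site, was at 152, 141 and 195 CPM in muscle and 78.0, 75.7 and 82.9 CPM in epithelium. The epithelial libraries lay close together and well below all muscle ones (log2 fold change 1.05 ± 0.23, adjusted p = 0.0199, edgeR). The 5 small subunits had a median log2 fold change of 0.79. Among them, Uqcr10 had the highest level of the complex (646 CPM per kb) and a fold change of 0.79 ± 0.27 (adjusted p = 0.104, edgeR). The core protein Uqcrc2 had the lowest level (57.8 CPM per kb) and a fold change of 0.52 ± 0.24 (adjusted p = 0.252, edgeR).

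Uqcrfs1, the Rieske iron-sulphur protein and the one catalytic subunit of complex III taken by the rule, was the exception. It was at 305, 196 and 292 CPM in muscle and 284, 239 and 289 CPM in epithelium. Muscle libraries lay both above and below the epithelial ones. The log2 fold change was -0.03 ± 0.25 (adjusted p = 0.977, edgeR), and its sign turned without muscle replicate 2 or epithelium replicate 1.

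Complex IV, cytochrome c oxidase, gave 3 of the 6 calls, all among its 11 ubiquitous nuclear subunits. Ndufa4 (chr6:11900292-11907497, minus strand), first described with complex I and now counted as a subunit of complex IV, was at 201, 205 and 298 CPM in muscle and 116, 76.9 and 118 CPM in epithelium. All muscle libraries were well above the epithelial ones (log2 fold change 1.18 ± 0.28, adjusted p = 0.0271, edgeR). Cox6c (chr15:35925886-35938246, minus strand), a small subunit with a membrane helix, was at 134, 181 and 231 CPM in muscle and 105, 75.8 and 81.1 CPM in epithelium. Muscle replicate 1 was nearest to the epithelial libraries, without overlap (1.06 ± 0.28, adjusted p = 0.0403, edgeR).

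Cox7b (chrX:106015700-106022450, plus strand), another small membrane subunit, was at 121, 136 and 176 CPM in muscle and 73.2, 63.0 and 78.4 CPM in epithelium. Here too the groups stood apart (1.01 ± 0.24, adjusted p = 0.0279, edgeR). The 11 ubiquitous subunits together had a median of 0.59, and all 11 were above 0. None of the ubiquitous forms Cox4i1, Cox6a1, Cox6b1, Cox7a2 and Cox8a passed. Their log2 fold changes were between 0.46 and 0.76, and the adjusted p was between 0.109 and 0.434 by edgeR. Cox8a had the highest level of the complex, 847 CPM per kb. Cox7a2l, which helps to join complexes III and IV, was at 0.30 ± 0.24 (adjusted p = 0.657, edgeR).

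**Figure D3:**
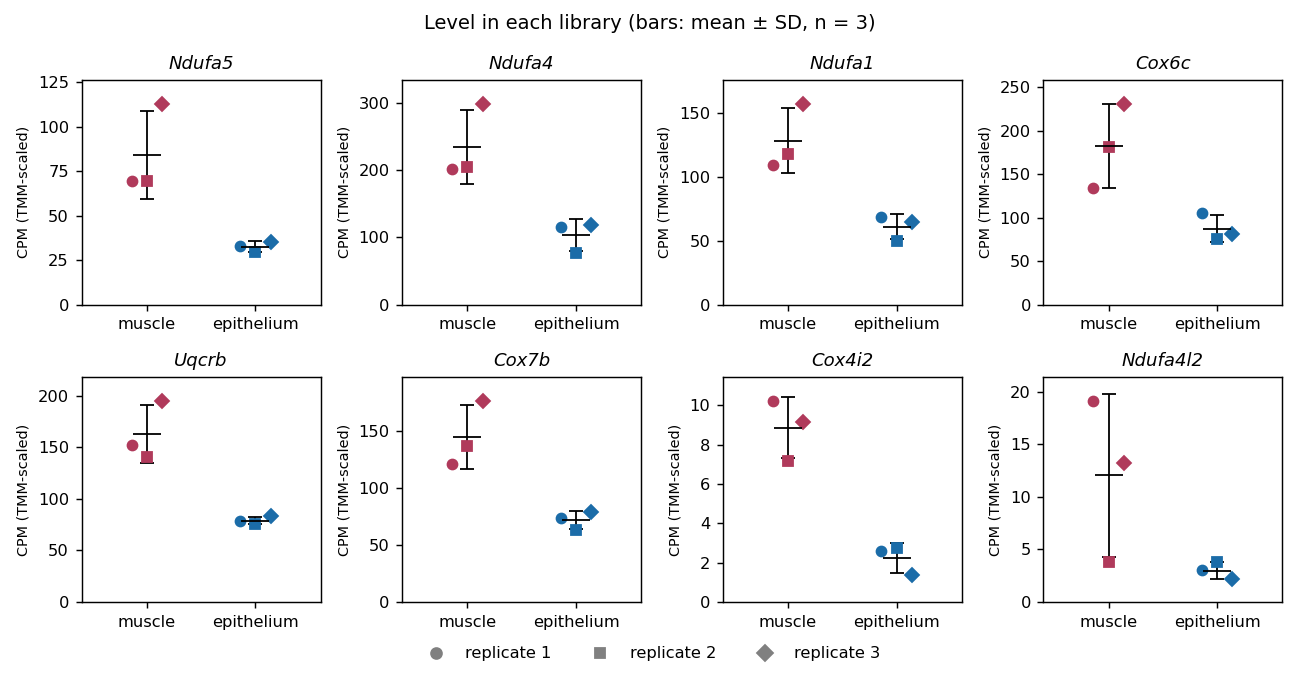
TMM-scaled CPM in each library for the 6 called genes and for the isoforms Cox4i2 and Ndufa4l2, which were not called, with the mean ± SD (n = 3) of each group. The groups do not overlap for the 6 called genes and Cox4i2, and Ndufa4l2 in muscle replicate 2 (3.79 CPM) lies within the epithelial range.

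The tissue isoforms of complex IV were low throughout, and none was called by edgeR with all 6 libraries and TMM scaling. Cox4i2, the isoform known from lung and from hypoxic cells, was at 10.2, 7.19 and 9.18 CPM in muscle and 2.60, 2.74 and 1.35 CPM in epithelium. The groups stood apart. The difference, 1.99 ± 0.63 on the log2 scale, missed the threshold (adjusted p = 0.0834, edgeR, and 0.00567 to 0.387 over 15 alternative fits). DESeq2 (adjusted p = 0.00567), the fit with the background covariate (0.028) and the libraries of day 16 alone (0.0481) called it, and the other 12 fits did not. Set per length against its ubiquitous partner, Cox4i2 made up 1.28% ± 0.173 of the Cox4i1 and Cox4i2 signal in muscle and 0.474% ± 0.217 in epithelium (SD, n = 3), without overlap. Cox4i1 thus stood for nearly all of the signal of this subunit in both populations.

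Ndufa4l2, the relative of Ndufa4 that is known as a target of hypoxia-inducible factor, was at 19.1, 3.79 and 13.2 CPM in muscle and 2.99, 3.81 and 2.14 CPM in epithelium. Muscle replicate 2 was no higher than epithelium. The log2 fold change was 2.02 ± 0.66 (adjusted p = 0.097, edgeR), and 0.0117 to 0.537 over the 15 alternatives. It was called without muscle replicate 2 (adjusted p = 0.0117), in day 16 alone (0.0138) and by DESeq2 (0.0384). Cox7b2, the testis isoform, had the lowest level among the tested genes of the complex (2.16 CPM per kb). It had 34, 67 and 37 counts in muscle and 7, 12 and 14 in epithelium (log2 fold change 1.94 ± 1.66, adjusted p = 0.688, edgeR). In epithelium replicates 2 and 3 this was near the average level of a receptor gene.

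The isoforms of striated muscle had few counts in both groups. Cox7a1, the heart and skeletal muscle form, had 8, 42 and 44 counts in muscle and 64, 50 and 55 in epithelium, which gives 0.304, 2.10 and 1.11 CPM against 1.19, 3.34 and 2.07 CPM. The groups overlapped (log2 fold change -0.91 ± 1.43, adjusted p = 0.892, edgeR), and in both groups the highest library was the one with the most receptor gene counts. In the libraries with few receptor gene counts Cox7a1 lay well above the average receptor gene, as in epithelium replicate 1 (1.19 against 0.00447 CPM). Cox6a2 had 17, 32 and 8 counts in muscle and 18, 0 and 2 in epithelium, and Cox8b had 9, 0 and 6 against 0, 24 and 12. Both are also forms of striated muscle. Together with Cox8c, a testis form with 0, 6 and 0 against 0, 4 and 26 counts, they are the 3 genes left out of the tests for low counts. Cox6b2, a testis form, was at 0.31 ± 0.35 (adjusted p = 0.807, edgeR), and its fold change fell below 0 without muscle replicate 3.

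In complex V, the ATP synthase, all 16 fold changes were above 0, 10 genes did not overlap and none was called by edgeR (7 were higher in muscle at an unadjusted p of 0.05). The 5 genes of the catalytic F1 head had the smallest median of its parts, 0.24. Atp5b, the catalytic beta subunit, had the highest level of all 89 tested genes, with 1041 CPM per kb in muscle and 947 in epithelium. It differed little, with 0.14 ± 0.28 on the log2 scale (adjusted p = 0.92, edgeR). Atp5d, the delta subunit of F1, was at 0.09 ± 0.29 (adjusted p = 0.945, edgeR), the smallest difference of the complex. The signs of both turned under scaling by total counts and without epithelium replicate 2, and that of Atp5d under 4 further alternatives.

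The peripheral stalk genes (4, median 0.73) and the small membrane subunits (3, median 0.90) were higher in muscle without overlap for 4 of 4 and 3 of 3. Atp5k, subunit e, which takes part in pairing ATP synthases into dimers, had the largest difference of the complex. It was at 12.9, 24.6 and 33.6 CPM in muscle and 11.7, 8.15 and 7.70 CPM in epithelium. Muscle replicate 1 was only just above epithelium replicate 1, and the difference of 1.37 ± 0.39 missed the threshold (adjusted p = 0.0612, edgeR). The lowest level of the complex was that of Atp5s, a factor associated with the synthase (12.8 CPM per kb, log2 fold change 0.41 ± 0.31, adjusted p = 0.609, edgeR).

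Atp5g1, Atp5g2 and Atp5g3 encode the same mature c-ring protein from different genes. Their log2 fold changes were 0.59 ± 0.29, 0.35 ± 0.26 and 0.60 ± 0.27 (adjusted p = 0.29, 0.593 and 0.242, edgeR). Set per length against Atp5g3, Atp5g1 made up 29.8% ± 2.40 of the pair's signal in muscle and 29.8% ± 2.30 in epithelium, so the mix of both was alike to within the spread (SD, n = 3). Between the complexes, the median level per kilobase was 136 ± 26.7 CPM per kb in muscle and 85.7 ± 15.8 in epithelium for complex I, 204 ± 46.4 and 137 ± 33.4 for complex II, and 287 ± 48.9 and 196 ± 38.0 for complex III. It was 169 ± 34.0 and 125 ± 28.4 for complex IV and 209 ± 44.4 and 130 ± 28.3 for complex V. Complex III had the highest and complex I the lowest of these medians in both populations. The medians take in 8 assembly factors in complex I and 5 low tissue isoforms in complex IV, so they do not rank subunits alone.

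Short transcripts had the larger differences. The median log2 fold change was 0.86 for the 8 genes with transcripts under 500 nucleotides, 0.71 for 27 from 500 up to 700, 0.75 for 19 from 700 up to 1000, 0.45 for 16 from 1000 up to 1500, 0.47 for 14 from 1500 up to 2500 and 0.34 for 5 of 2500 or more. Other genes whose average log2 CPM reached 5 followed the same order loosely, with medians of 0.38, 0.43, 0.38, 0.26, 0.16 and 0.14 in these classes. The oxidative phosphorylation genes lay above the others in every class. Across the 89 genes, which share libraries and depth and are not independent, log2 fold change and log length correlated at r = -0.30 (rho = -0.43), given as a description. Of 94 cytosolic ribosomal protein genes, whose transcripts are also short and abundant, 87 were above 0 with a median of 0.42. The part of length in the difference was not tested further.

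**Figure D4:**
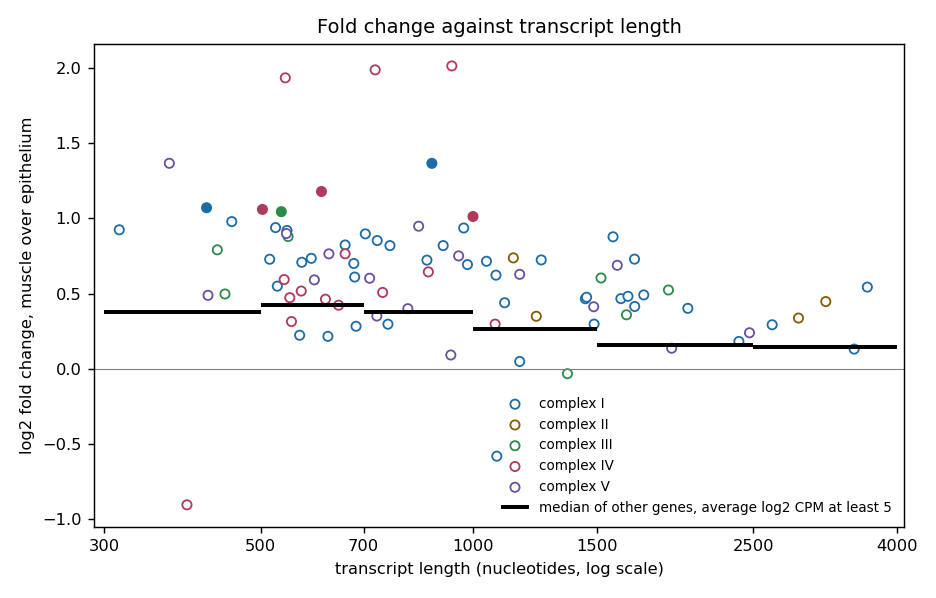
Log2 fold change, muscle over epithelium, against transcript length in nucleotides (log axis) for the 89 tested oxidative phosphorylation genes, coloured by complex, filled where called. Black bars are medians of other genes whose average log2 CPM reached 5 in each length class, from 0.43 at 500 up to 700 nucleotides to 0.14 at 2500 or more.

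Many of these genes have processed pseudogenes, between which short reads can be shared. Near-identical copies (at least 95% identity over at least 80% of the coding sequence) were sought among the annotated transcripts of other genes. They were found for 23 of the 92 genes, among them Cox6c and Cox7b with 2 copies each and Uqcrb with 3. Their values are uncertain to that extent, and so is Cox6c for its exons shared with Vps13b and Uqcrb for those shared with Gm10767. Ndufa5, Ndufa4 and Ndufa1 have no such annotated copy. Copies in the genome outside the annotation were not sought. The median log2 fold change was 0.76 over the 23 genes with a copy, of which 3 were called, and 0.52 over the 66 tested genes with none, of which 3 were called. Of these 66, 63 were above 0.

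The other nuclear genes of the pathway and of the mitochondrion were read from lists in the same fit. Of all tested genes, 6.58% were called higher in muscle and 4.11% higher in epithelium, the background for the calls in every list. Of 41 tested assembly factors outside the symbol rule, Tmem70, which builds the ATP synthase, and Cox20, a complex IV chaperone, were called higher in muscle and none higher in epithelium. Tmem70 was at 178, 96.8 and 183 CPM in muscle and 73.2, 48.5 and 67.5 CPM in epithelium (log2 fold change 1.27 ± 0.31, adjusted p = 0.0303, edgeR), and Cox20 was higher by 0.87 ± 0.23 (adjusted p = 0.0447, edgeR). The list's median was 0.24, with 31 of 41 above 0. Of 17 genes for cytochrome c and coenzyme Q, only Cycs, which encodes the cytochrome c of somatic cells, was called. It was at 123, 115 and 161 CPM against 64.9, 57.5 and 85.7 CPM (0.94 ± 0.26, adjusted p = 0.0487, edgeR), while the list's median was -0.08.

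Of 27 genes of the tricarboxylic acid cycle and pyruvate dehydrogenase, 3 were called, all higher in muscle, beside 6.58% of all tested genes, and 24 were above 0 with a median of 0.53. The called genes were Pdp1, the phosphatase that activates pyruvate dehydrogenase (log2 fold change 1.40 ± 0.29, adjusted p = 0.0143), and the mitochondrial pyruvate carrier subunits Mpc1 (1.08 ± 0.24, adjusted p = 0.0197) and Mpc2 (0.90 ± 0.24, adjusted p = 0.0419), all by edgeR. Mpc1 was at 36.8, 38.3 and 48.3 CPM in muscle and 17.7, 22.3 and 18.5 CPM in epithelium. The groups were well apart.

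Among 33 tested import and carrier genes, 3 were called higher in muscle and 2 higher in epithelium, beside 6.58% and 4.11% of all tested genes. The list's median was 0.37. Slc25a4, the ADP/ATP exchanger typical of heart and muscle, was at 1396, 1031 and 1581 CPM in muscle and 622, 447 and 655 CPM in epithelium (1.22 ± 0.27, adjusted p = 0.0222, edgeR). Usmg5, which encodes a small protein bound to the ATP synthase, had an adjusted p of 0.0171 and Timm17b, of the inner membrane import channel, had an adjusted p of 0.046 by edgeR. In the other direction, Ucp2, an uncoupling protein relative, was at 53.6, 26.7 and 44.2 CPM in muscle and 181, 140 and 200 CPM in epithelium (-2.07 ± 0.31, adjusted p = 0.00343, edgeR). Chchd10, of the intermembrane space, was at 2.47, 8.59 and 3.06 CPM against 40.3, 20.2 and 39.7 CPM (-2.84 ± 0.53, adjusted p = 0.00906, edgeR).

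Of 25 regulators of mitochondrial biogenesis, Myc was the one call. It was at 152, 140 and 157 CPM in muscle and 47.8, 37.8 and 25.5 CPM in epithelium (2.01 ± 0.28, adjusted p = 0.00229, edgeR). Of the 25, 15 were above 0, with a median of 0.13 and a lowest log2 fold change of -1.63. In 4, every muscle library was above every epithelial one, a share near the 16.4% of all tested genes. In 1 the reverse held, beside 10.5% of all tested genes. Beside Myc, the 4 were the coactivator Ppargc1b (1.42 ± 0.65, adjusted p = 0.249) and the nuclear receptors Esrrg (1.02 ± 0.59, adjusted p = 0.41) and Ppara (0.95 ± 0.55, adjusted p = 0.402), none past the threshold of edgeR. Ppargc1a was at 0.33 ± 0.34 (adjusted p = 0.781, edgeR), with overlap. These 4 were chosen for naming after their values were seen. Of 76 mitochondrial ribosomal protein genes, 59 were above 0 with a median of 0.24. In that list Mrpl20 was called higher in muscle (adjusted p = 0.031, edgeR) and Mrps30 higher in epithelium (-2.13 ± 0.43, adjusted p = 0.0138, edgeR).

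How many genes were called depended strongly on the fit, while 78 to 87 of the 89 had a fold change above 0 in each. Over 15 alternative fits between 0 and 42 of the tested genes were called higher in muscle and none higher in epithelium. Of all tested genes, 2.82% to 10.7% were called higher in muscle there. The median log2 fold change of the 89 genes was between 0.35 and 0.75. Ndufa5 was called in 14 of the 15, Ndufa4 and Uqcrb in 11 each, Ndufa1 and Cox7b in 10 each and Cox6c in 8. Scaling by total counts lowered the median of all tested genes from -0.10 to -0.33, upper quartile scaling to -0.20 and DESeq2 to -0.20. Relative to that median, the oxidative phosphorylation genes lay 0.70 higher with TMM and 0.68 higher with scaling by total counts. The lead was smaller with limma-voom (0.53), with the background covariate (0.42) and without epithelium replicate 2 (0.36), and larger without epithelium replicate 1 (0.91).

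**Figure D5:**
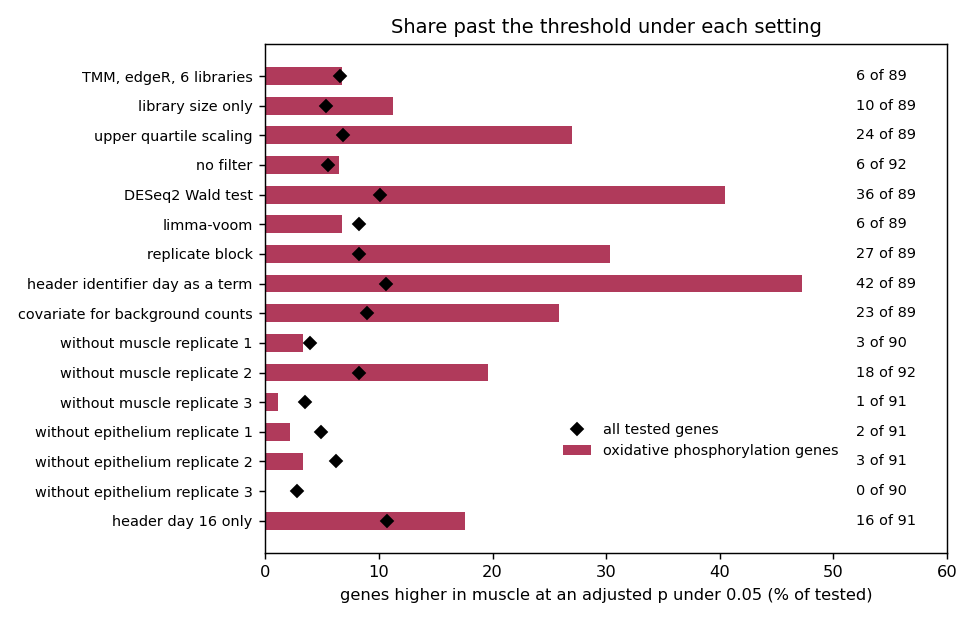
Percent of tested oxidative phosphorylation genes (bars) and of all tested genes (diamonds) called higher in muscle at an adjusted p under 0.05 in the 6-library TMM fit and in 15 alternatives, with the numbers of genes at the right. The bar reaches 47.2% with the header day as a term and is at 0 without epithelium replicate 3.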

How the data were processed

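RNA of sorted tracheal muscle and epithelium from mouse embryos was measured in 6 libraries. Per the labels' protocols, cells were dissociated with TrypLE, RNA was extracted with Trizol, and libraries were made with SMART-Seq v4 and Nextera XT, which in standard use keep no strand and no molecular identifiers. The authors deposited whole-number counts per gene symbol, in 1 table. The submitters' processing notes name Trim Galore, Bowtie2, Cufflinks, DESeq and mm10 without roles, and the counting program and its filters are not given in the sources used here. Between 73.8% and 79.6% of counts of 1 to 19 were even, so a fragment may have been counted as 2.

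Genes were filtered with filterByExpr, scaled by TMM and compared between 3 muscle and 3 epithelial libraries, grouped by title, in edgeR 4.0.16 under R 4.3.3 (quasi-likelihood, two-sided, robust, Benjamini-Hochberg over 19375 genes, threshold 0.05). Standard errors derive from the test statistic. An exact permutation test of 3 against 3 cannot go below p = 0.1. CPM was computed from the counts with TMM-scaled library sizes, except for the receptor genes, where total counts were used. A pseudocount of 0.5 CPM was used for ratios of 2 libraries. Positions and lengths are from GENCODE release 21 of mouse (GRCm38), and promoters are from RefSeq. Copies were sought among GENCODE transcripts with blastn 2.17.0. The fit was run on simulated counts, drawn independently per gene without a day effect, so that run does not vouch for these data. The genes and lists were chosen with earlier results of these data known. Named were called genes, tissue isoforms, Sdha to Sdhd, in each complex the highest, the lowest and the most changed genes, and up to 3 called genes in each direction per companion list. The 13 subunits encoded by mitochondrial DNA were not found in the count table and were not analysed.

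Alternatives were scaling by library size or upper quartile, no filter, DESeq2 1.42.0, limma-voom (limma 3.58.1), a replicate block, the header day, a covariate for background counts and leaving out each library. The libraries of day 16 alone, and the genes with no near-identical copy, were added after seeing the data. Depth is given with the results, and intervals cover counting error only.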

Additional observations from a re-analysis of the deposited data

How the results depend on the processing

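The number of oxidative phosphorylation genes called higher in muscle was 6 in the edgeR fit with TMM scaling. It was 10 with scaling by library size, 24 with upper quartile scaling, 36 with DESeq2, 42 with the header day as a term, 23 with the background covariate, 16 in the libraries of day 16 alone, 3 among genes with no near-identical copy, and 0 to 18 with each library left out in turn. It was 0 without epithelium replicate 3, where 17 passed an unadjusted p of 0.05. The share of all tested genes called higher in muscle was 6.58% in the first fit and 5.37% with scaling by library size. It was 6.87% with upper quartile scaling, 10.1% with DESeq2, 10.6% with the header day and 8.99% with the covariate. In day 16 alone it was 10.7%, and with a library left out 2.82% to 8.25%. The lists of other mitochondrial genes gave 14 calls in all, 24 with scaling by library size, 27 with upper quartile scaling, 34 with DESeq2, 52 with the header day, 24 with the covariate, 22 in day 16 alone and 4 to 25 with a library left out. Genes called in the whole table, in either direction, numbered 2071 (10.7%). They were 3531 (18.2%) by DESeq2, 3178 (16.4%) with the header day and 1169 to 2573 (5.78% to 12.8%) with a library left out. No oxidative phosphorylation gene was called higher in epithelium in any of these fits.

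With the replicate number as a block, 27 oxidative phosphorylation genes (30.3%) were called higher in muscle, beside 8.27% of all tested genes. In that fit 32 companion genes and 2418 genes in all (12.5%) were called in either direction. Of the 6, 5 were still called, all but Cox6c (adjusted p = 0.0503, edgeR). Whether the numbers pair the libraries was not settled. Deviations from the group means correlated across genes at 0.572 and 0.662 for numbers 1 and 2 and at -0.422 for number 3. Over genes whose average log2 CPM reached 6, the values were 0.184, 0.159 and -0.178. Deviations from a mean of 3 libraries are tied to each other, so these values cannot decide it.

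Signs turned for 4 named genes, none of them called. Atp5b went to -0.12 with scaling by library size, and lay between -0.10 (without epithelium replicate 2) and 0.30 with a library left out. Atp5d went to -0.17 with scaling by library size, -0.040 with upper quartile scaling, -0.019 with DESeq2 and -0.035 in day 16 alone, and lay between -0.17 and 0.25 with a library left out (below 0 without muscle replicate 3 or epithelium replicate 2). With a library left out, Uqcrfs1 lay between -0.17 and 0.15 (above 0 without muscle replicate 2 or epithelium replicate 1) and Cox6b2 between -0.033 (without muscle replicate 3) and 0.57. The cause was not tested. The standard errors were the widest for Cox7b2 (1.66) and Cox7a1 (1.43), which had 67 counts or fewer in every library.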
